A study of Mus musculus with 24 samples.

Results

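TRAV1 and TRAJ33 are the V and J segments of the T cell receptor alpha (TCRα) chain that mucosal-associated invariant T (MAIT) cells use together. All sequences carrying either segment were taken from the TCRα clonotype tables of 24 mouse tumors, provided that they had no stop mark and at least 2 counts. This gave 2546 of 55689 sequence records and 1656 of 35452 clonotypes, a clonotype being a CDR3 amino acid sequence with its V and J segment. The CDR3 is the junction of V and J, and the part of the chain that reaches over the presented antigen. The members were divided into 20 clonotypes with both segments (MAIT-type), 673 with TRAV1 and another J, and 963 with TRAJ33 and another V.

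The tumors came from 12 female BALB/c mice, 7 to 9 weeks old, that carried CT26.CL25 colon carcinoma cells under the skin of both flanks. In the time-matched group (mice 6, 12 and 14) both tumors were removed together on day 13, without treatment. In the time-separated group (mice 4, 17 and 19), which served as the untreated control, 1 tumor was excised by surgery and the other was harvested 11 days later. The low-dose and high-dose groups (mice 3, 11 and 20, and mice 7, 10 and 16) underwent the same surgery and then received the demethylating drug decitabine (DAC) into the peritoneum, at 0.5 mg/kg in the low-dose and at 2 mg/kg in the high-dose mice, on 5 consecutive days, starting 3 days after surgery, with harvest 4 days after the last dose. The tumors of a mouse are numbered 1 and 2 in the labels, and which was removed first is not given there, so a treated mouse contributed 1 tumor from before and 1 from after the drug and these could not be separated.

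MAIT cells are innate-like T cells that recognise vitamin B2 metabolites of microbes on the MR1 molecule. Their alpha chain is nearly the same in every animal, and a tyrosine encoded by TRAJ33 touches the ligand. They are rare in laboratory mice and known from mucosal tissues, liver and lung. The tables hold alpha and beta chains of whole tumors separately, with no cell surface marker, and a chain is therefore called MAIT-type here by its segments alone. In RNA from whole tumors, fewer cells of a type and less RNA per cell cannot be told apart.

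The junction is short, and its sequence shows how the segments of MAIT-type chains were joined. The MAIT-type CDR3 sequences found in more than 1 mouse are shown first, followed by others of single mice that show the variation at the junction. Lower case marks the bases that run on from the left in the majority sequence of the TRAV1 end (15 bases) or from the right in that of the TRAJ33 end (25 bases), and capitals mark the bases of neither.
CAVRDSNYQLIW: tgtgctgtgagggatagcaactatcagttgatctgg
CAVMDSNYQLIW: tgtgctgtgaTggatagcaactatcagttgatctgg
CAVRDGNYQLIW: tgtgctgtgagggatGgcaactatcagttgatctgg
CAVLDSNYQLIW: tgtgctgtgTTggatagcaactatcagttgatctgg
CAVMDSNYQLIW, other sequence (mouse 20): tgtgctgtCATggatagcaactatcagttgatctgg
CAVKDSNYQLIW: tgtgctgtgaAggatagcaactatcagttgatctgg
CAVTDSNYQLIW: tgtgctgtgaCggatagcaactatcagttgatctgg
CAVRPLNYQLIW: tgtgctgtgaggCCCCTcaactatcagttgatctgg
16-residue clonotype of mouse 7: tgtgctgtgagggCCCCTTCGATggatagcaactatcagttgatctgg
In the first sequence both ends met with 0 bases between them and with 4 bases that fit either end. Of the 42 MAIT-type records, 13 had 0 bases of neither end, and all of these were this sequence, recorded once per tumor. The median record held 1 base of neither end. Counted from the first base of the CDR3, the first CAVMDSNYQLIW sequence differs from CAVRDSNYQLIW by G11T, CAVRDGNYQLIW by A16G, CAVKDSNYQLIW by G11A and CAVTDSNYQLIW by G11C. Of the 20 MAIT-type clonotypes, 5 are equal apart from residue 4 (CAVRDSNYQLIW included), and these held 969 of the 1390 MAIT-type counts (69.7%).

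For comparison, the most widely shared clonotypes of the other classes are a TRAV6-6 chain with TRAJ33 (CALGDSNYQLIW, 11 mice) and a TRAV1 chain with TRAJ30 (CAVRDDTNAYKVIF, 6 mice). Here capitals mark the bases at the right that fit the TRAJ33 end.
TRAV6-6 with TRAJ33: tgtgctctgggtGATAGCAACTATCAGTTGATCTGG
TRAV1 with TRAJ30: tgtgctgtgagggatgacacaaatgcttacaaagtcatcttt
The TRAV6-6 chain keeps the TRAJ33 end and has another beginning, whereas the TRAV1 chain keeps the beginning and has another end.

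A single MAIT-type chain recurred across the mice. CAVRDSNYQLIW was found in 10 of 12 mice and 13 of 24 tumors, in every group, and held 743 of 1390 MAIT-type counts (53.5%). In all 10 mice it was encoded by the sequence printed above, which held 741 of these counts. The remaining 2 counts were a second sequence in tumor 1 of mouse 19. It was most abundant in that tumor, at 226 counts or 0.259% of the TCRα counts, followed by tumor 1 of mouse 20 (0.0652%) and tumor 2 of mouse 6 (0.0641%). Among the time-matched mice, mouse 6 had it at 0.00754% and 0.0641%, mouse 12 at 0.00315% and 0, and mouse 14 at 0.0203% and 0.0249%. Mice 4 and 11 lacked it and had other MAIT-type chains. In mouse 17 it had 7 counts in each tumor beside the 1-base neighbour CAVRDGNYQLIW with 223 and 19 counts, and without tumor 1 of that mouse it remained in 10 mice and 12 tumors.

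The other MAIT-type clonotypes were mostly private to a mouse. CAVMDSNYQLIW was found in mice 4, 6 and 20, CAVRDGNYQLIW in mice 17 and 7, and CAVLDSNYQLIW in mice 4 and 6, while 16 of 20 were seen in 1 mouse. Both chains of mouse 6 had 3 counts, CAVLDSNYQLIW was shared only through these, and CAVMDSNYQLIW was there 1 base from a record 37.7 times as large. The 4 shared clonotypes nevertheless held 83.4% of the MAIT-type counts. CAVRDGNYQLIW was the main MAIT-type chain of mouse 17, at 0.157% and 0.0163% of the counts of its tumors, and reached 0.0939% in tumor 2 of mouse 7. Of the 42 records, 15 differed by 1 base from a larger record of their tumor, and in 10 of these the larger one had at least 10 times the count. Whether these are copies of the larger ones was not tested. The same CDR3 as the most shared chain was also listed in 2 records with another V segment, TRAV3-3, at 115 counts in all, in mouse 10.

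**Figure D1:**
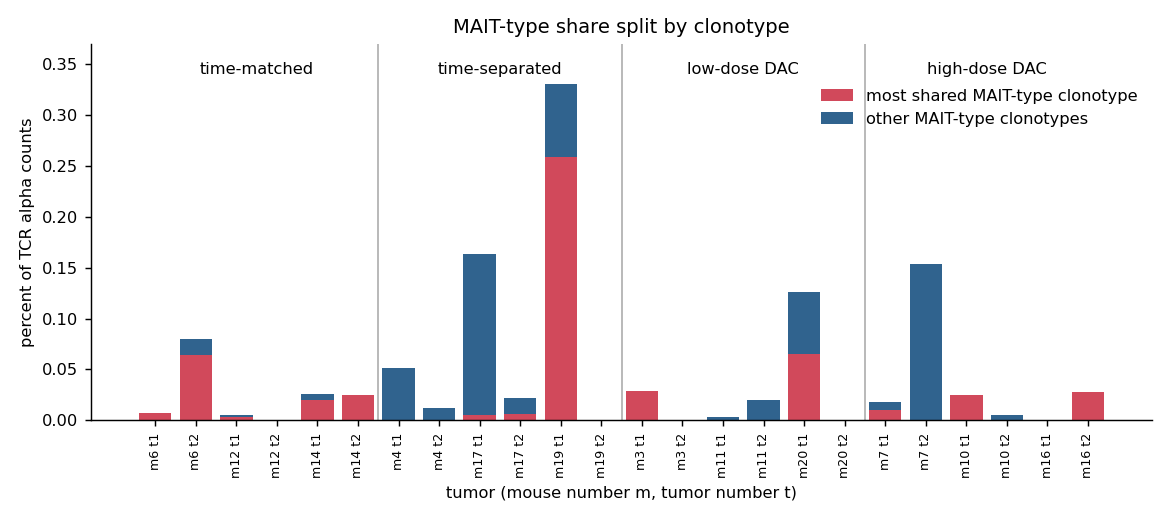
MAIT-type share of the TCRα counts (percent) in each of the 24 tumors, with the part held by the most shared clonotype in red and by all other MAIT-type clonotypes in blue. The red part is present in 13 tumors of 10 mice, and the highest bar, tumor 1 of mouse 19 at 0.330%, is mostly red.

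MAIT-type chains were found in 12 of 12 mice and in 19 of 24 tumors, always as a small part of the repertoire. Their share of the TCRα counts had a median of 0.0210% over the 24 tumors and a maximum of 0.330% in tumor 1 of mouse 19. In tumor 1 and tumor 2 of the time-matched group, mouse 6 had 0.00754% and 0.0800%, mouse 12 had 0.00507% and 0, and mouse 14 had 0.0263% and 0.0249%. In the time-separated group, mouse 4 had 0.0519% and 0.0123%, mouse 17 had 0.164% and 0.0224%, and mouse 19 had 0.330% and 0. At the low dose, mouse 3 had 0.0288% and 0, mouse 11 had 0.00302% and 0.0197%, and mouse 20 had 0.126% and 0. At the high dose, mouse 7 had 0.0185% and 0.154%, mouse 10 had 0.0254% and 0.00507%, and mouse 16 had 0 and 0.0281%. Every group thus held tumors with MAIT-type chains and at least 1 tumor with no retained count of them. The values of the groups overlapped.

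The libraries held between 26623 and 846655 retained TCRα counts (median 159256), and the time-matched libraries were the deepest, with a median of 292692.5 against 101743.5 in the time-separated group. The precision at these counts can be read from tumor 1 of mouse 11, where 6 of 198499 counts gave 0.00302% with a 95% Clopper-Pearson interval of 0.00111% to 0.00658%. The number of cells behind a count is unknown, and such intervals and limits therefore describe the error of counting alone. Of the 5 tumors with no retained MAIT-type count, 3 also had no single count. There the limit was taken as the share of 3 retained counts, at 0.00139% in mouse 16, 0.00344% in mouse 19 and 0.00537% in mouse 3. In the same order, the upper 95% Clopper-Pearson bounds over the retained counts were 0.00171%, 0.00423% and 0.00660%. Tumor 2 of mouse 12, the deepest library, held 2 MAIT-type sequences of a single count among 857781 counts with single ones included, and tumor 2 of mouse 20 held 1 among 74415. For these tumors of mice 12 and 20, the upper 95% Clopper-Pearson bounds over the totals with single counts were 0.000842% and 0.00749%. With all libraries thinned to 26623 counts, MAIT-type chains were still seen in 17.9 tumors on average (17 to 19 over 20 draws). Sequences with a single count, left out here, would have added 116 MAIT-type sequences in 17 tumors.

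The classes that share only 1 segment with MAIT-type chains were present in 24 of 24 tumors. TRAV1 with another J held between 0.116% and 3.80% of the counts (median 0.605%), and TRAJ33 with another V between 0.0969% and 15.2% (median 1.46%). Across both segments, TRAV1 made up 1.17 ± 0.778% of the counts (SD, n = 12 mice) and ranked place 27 of 76 TRAV segments, and TRAJ33 made up 2.84 ± 3.62% and ranked place 12 of 43 TRAJ segments. The level of TRAV1 was lowest in mouse 12 (0.182%) and highest in mouse 17 (2.35%), and that of TRAJ33 was lowest in mouse 20 (0.345%) and highest in mouse 14 (13.6%).

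**Figure D2:**
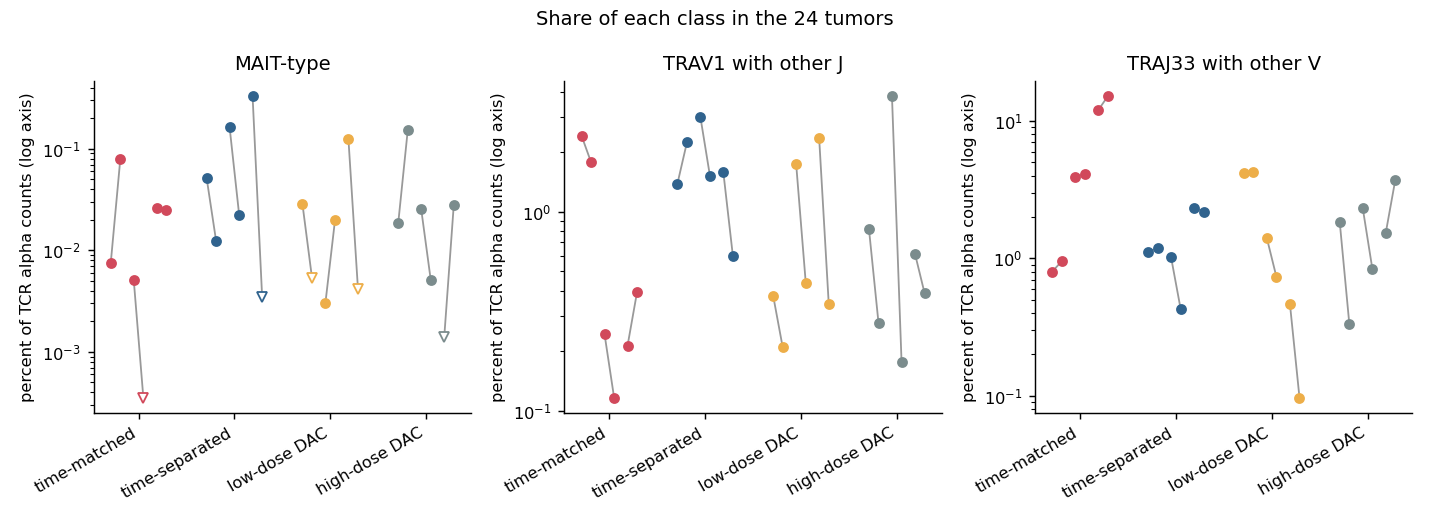
Share of the TCRα counts (percent, log axis) of MAIT-type chains, of TRAV1 with another J and of TRAJ33 with another V, by group, with 1 point per tumor and a line joining the tumors of a mouse. Open triangles are tumors with no retained MAIT-type count, drawn at the share of 3 counts. The highest points of the right panel are the tumors of mouse 14 at 12.0% and 15.2%.

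Whether removal of the tumors together or apart, or decitabine, went with the share of these chains was tested with 1 value per mouse, the mean of its tumors. No comparison passed. The MAIT-type share was 0.0240 ± 0.0207% in the time-matched mice, 0.0968 ± 0.0666% in the time-separated mice, 0.0296 ± 0.0290% at the low dose and 0.0385 ± 0.0413% at the high dose (SD, n = 3 each). Time-matched mice were lower than the untreated time-separated mice, with a mean difference of −0.0728 percentage points and overlap of the groups (exact permutation test, two-sided, p = 0.2, where 0.1 is the smallest possible). Against all 9 time-separated mice, at 0.0550 ± 0.0524%, the exact permutation test gave p = 0.364, and between the 3 time-separated groups p = 0.189. The highest mean belonged to the untreated time-separated mice, within which mouse 19 had 0.165% and mouse 4 had 0.0321%. Without mouse 19 the mean difference between time-matched and untreated time-separated mice was −0.0386, and with the largest MAIT-type clonotype of each mouse left out −0.0146 percentage points (exact permutation p = 0.3 and 0.2). With the counts of both tumors of a mouse summed it was −0.0796 and the groups did not overlap (exact permutation p = 0.1, which is above 0.05 and the smallest possible).

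TRAV1 with another J held 0.856 ± 1.07% in the time-matched mice, 1.71 ± 0.589% in the time-separated mice, 0.907 ± 0.547% at the low dose and 1.01 ± 0.846% at the high dose (SD, n = 3 each). In the same order of comparisons the exact permutation tests gave p = 0.3, 0.5 and 0.357. The time-matched mean rested on mouse 6 (2.09%), since mice 12 and 14 had 0.179% and 0.303%. TRAJ33 with another V held 6.16 ± 6.63%, 1.38 ± 0.795%, 1.85 ± 2.07% and 1.77 ± 0.787% (SD, n = 3 each), and the exact permutation tests gave p = 0.3, 0.0727 and 0.936. Over the 9 comparisons the lowest adjusted p (Benjamini-Hochberg) was 0.468. Leaving out mouse 6 or mouse 3 brought the second of these tests, time-matched against all 9 time-separated mice, to an exact permutation p = 0.0364 or 0.0424 before adjustment, whereas without mouse 14 the difference fell from 4.50 to 0.782 percentage points. With the largest clonotype of the class left out in each mouse it was 1.17 percentage points (exact permutation p = 0.0409 before adjustment).

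The mice with high TRAJ33 values differed in how far a single clonotype accounted for them. In mouse 14 the TRAV12-1 chain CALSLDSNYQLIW alone held 9.83% and 13.0% of the counts of its tumors, out of 12.0% and 15.2% for the class. The same chain had 2 and 5 counts in the tumors of mouse 12. In mouse 12, with 3.91% and 4.12%, the largest clonotype held 29.6% and 28.7% of the counts of the class. Mouse 6, the other time-matched mouse, had 0.802% and 0.955%. Other large chains were a TRAV7-5 chain (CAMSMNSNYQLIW) at 2.14% and 3.46% in mouse 3, a TRAV9-2 chain (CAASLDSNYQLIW) at 0.714% and 2.49% in mouse 16, and a TRAV6-5 chain (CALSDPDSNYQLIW) at 0.745% and 1.22% in mouse 19. Each of these 3 was found in a single mouse and in both of its tumors. Among the TRAV1 chains with another J, the largest of each group was taken by its highest share in a tumor. These included a 15-residue TRAJ32 chain at 1.88% and 0.0330% in mouse 10 and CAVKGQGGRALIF with TRAJ15 at 0.280% and 1.16% in mouse 17. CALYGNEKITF with TRAJ48 had 0.570% and 0.535% in mouse 6.

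As whole segments, neither TRAV1 nor TRAJ33 was called in any of the 3 comparisons over 119 TRAV and TRAJ segments. Between time-matched and untreated time-separated mice, 13.4% of segments had groups that did not overlap, and neither member was among them. Against all time-separated mice 2.52% of segments, and between the 3 time-separated groups 5.04%, had an exact permutation p below 0.05. The values of the members were p = 0.468 and 0.311 for TRAV1 and p = 0.0773 and 0.936 for TRAJ33, by the same exact permutation tests. Over the 12 mice, the TRAV segments whose level was most like that of TRAV1 were TRAV5N-4, TRAV5-1 and TRAV13-2, with a Spearman rho of 0.86, 0.83 and 0.80. For TRAJ33 they were TRAJ35, TRAJ30 and TRAJ39, with 0.43, 0.27 and 0.27. These are shares of the same libraries and are given as a description of likeness.

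Most MAIT-type chains had a CDR3 of 12 amino acids, a length that was less frequent in both pooled classes with 1 of the segments. Counted once per mouse, 28 of 33 MAIT-type clonotypes (84.8%) had 12 amino acids and the others 13 to 16, and the mean length was 12.3, against 13.6 for TRAV1 with another J and 12.9 for TRAJ33 with another V. In the mean of the mice, 83.1 ± 22.5% of MAIT-type clonotypes had 12 residues (SD, n = 12 mice), compared to 11.1 ± 9.54% for TRAV1 with another J. The difference of 72.0 ± 28.1 percentage points exceeded 0 in each of the 12 mice (p = 0.000488 in a two-sided exact sign-flip test, the lowest value it can give with 12 mice). Against TRAJ33 with another V, at 23.7 ± 15.9%, the difference was 59.3 ± 24.7 percentage points, again with 12 of 12 mice above 0 (p = 0.000488 in the same exact test). Adjusted over the 5 paired tests of length and sharing, both were 0.00122 (Benjamini-Hochberg). Of the 15 V segments with at least 20 TRAJ33 clonotypes counted once per mouse, TRAV6-6 had the highest share of 12 residues, with 51 of 59 (86.4%), followed by TRAV1, and TRAV3-3 came next with 9 of 22 (40.9%). These pairs were compared after the values were seen and without a test. By counts rather than clonotypes, 94.0% of MAIT-type counts were in CDR3s of 12 residues. The MAIT-type shares of a mouse took coarse steps, as a mouse had between 1 and 5 such clonotypes.

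**Figure D3:**
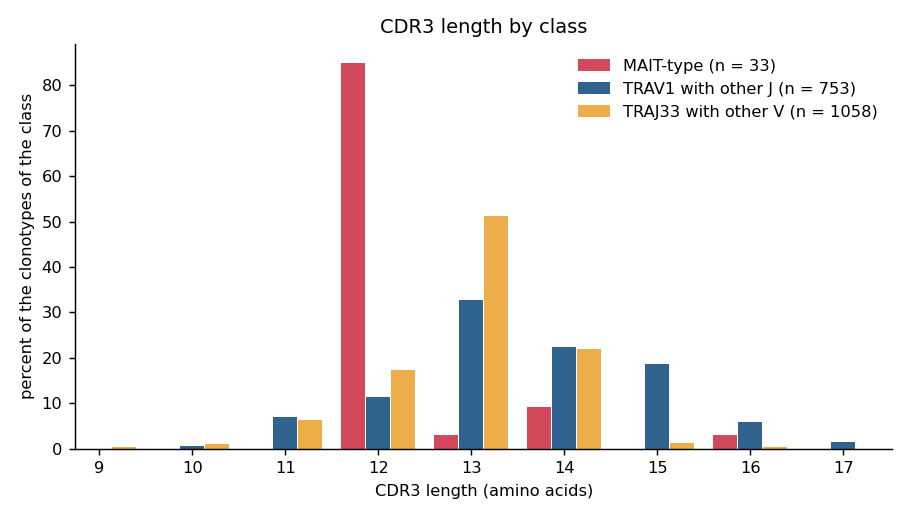
CDR3 length in amino acids against the percent of the clonotypes of each class with that length, each clonotype counted once per mouse. The MAIT-type bar at 12 residues reaches 84.8%, whereas TRAV1 with another J and TRAJ33 with another V peak at 13 residues with 32.7% and 51.2%.

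The sharing of MAIT-type clonotypes between mice was carried mainly by the most shared chain, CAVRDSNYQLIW. In the mean of the mice, 58.6 ± 31.3% of the MAIT-type clonotypes of a mouse were seen in another mouse (SD, n = 12), compared to 18.8 ± 8.14% for TRAV1 with another J, 17.0 ± 7.62% for TRAJ33 with another V and 19.0 ± 2.95% for all other TCRα clonotypes. The differences were 39.8 ± 31.1, 41.6 ± 32.7 and 39.6 ± 31.5 percentage points and were above 0 in 11, 10 and 11 of 12 mice. The exact sign-flip permutation tests gave p = 0.00195, 0.00195 and 0.00146, and 0.00195 after adjustment for each. Mouse 11 was the exception in all 3 comparisons, with 0 of its MAIT-type clonotypes in another mouse, and mouse 19 had 20% against 20.6% for TRAJ33 with another V. Counted once per mouse, 17 of the 33 MAIT-type clonotypes were seen in another mouse, and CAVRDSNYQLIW supplied 10 of these. Of the 23 others 7 were shared (30.4%). In the 10 mice with other MAIT-type clonotypes, their mean was 27.5 ± 34.3% and 5 mice had 0, and no difference passed (exact sign-flip permutation p = 0.471, 0.379 and 0.496, with the chain left out after its values were seen). The sharing of TRAJ33 chains was led by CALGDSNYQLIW with TRAV6-6, present in 20 tumors of 11 mice. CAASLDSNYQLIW with TRAV7-4 and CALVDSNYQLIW with TRAV6-6 followed in 7 mice each, the latter at 35 counts in all. These chains also keep the TRAJ33 end of the junction, at 12 residues with TRAV6-6 and 13 with TRAV7-4.

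**Figure D4:**
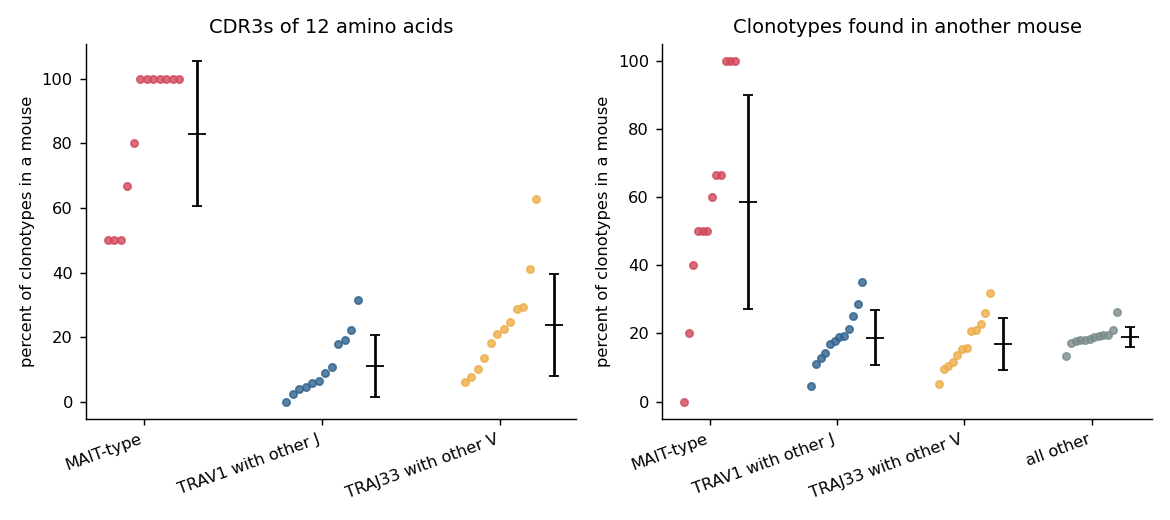
Percent of the clonotypes in a mouse that have a CDR3 of 12 amino acids (left) and that were found in another mouse (right), with 1 point per mouse and the mean ± SD of 12 mice beside the points. The MAIT-type points lie between 50% and 100% on the left and between 0 and 100% on the right, and the other classes reach at most 62.7% and 35.1%.

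Most MAIT-type clonotypes, like most TCRα clonotypes, were found in a single tumor of a mouse. Of 33 MAIT-type clonotypes counted once per mouse, 6 (18.2%) were found in both tumors, compared to 12.4% for TRAV1 with another J, 30.6% for TRAJ33 with another V and 19.3% over all TCRα clonotypes. These shares were not tested against each other. The absolute log2 ratio between tumors, with absent classes set at the 3-count limit, was 2.44 ± 2.06 in time-matched and 3.85 ± 2.41 in untreated time-separated mice for MAIT-type chains (SD, n = 3 each, exact permutation test, p = 0.6). These means include mouse 12 (3.84) and mouse 19 (6.59), where a tumor at that limit makes the ratio depend on library depth. For TRAJ33 with another V the absolute log2 ratio was 0.221 ± 0.135 and 0.484 ± 0.664 (exact permutation test, p = 0.8), and for TRAV1 with another J 0.802 ± 0.320 and 1.03 ± 0.356 (exact permutation test, p = 0.5). Against all 9 time-separated mice the exact permutation tests gave p = 0.355 for MAIT-type chains, 0.173 for TRAJ33 and 0.227 for TRAV1, and 0.682 was the lowest of the 6 values after adjustment. Within the time-matched mice, the MAIT-type log2 ratio of tumor 2 to tumor 1 was 3.41 for mouse 6, −3.84 for mouse 12 and −0.08 for mouse 14. The value of mouse 12 is not a measured ratio, since its tumor 2 held no retained count, only 2 single ones, and was set at the 3-count limit. Tumors harvested on the same day thus differed in mouse 6, and in mouse 12 at that limit, but hardly in mouse 14.

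Joining of TRAV1 to TRAJ33 was above the number that the use of each segment alone would give, but did not pass after adjustment in the main setting. That number takes no account of the place of a J segment along the locus, which is described below. Summed over mice, 33 clonotypes were observed against 18.0 expected, a ratio of 1.84. The mean log2 ratio was 0.66 ± 0.80 (SD, n = 12 mice) and lay above 0 in 9 mice (p = 0.0181 in a two-sided exact sign-flip test). Adjusted over the 1483 V-J pairs tested the sign-flip p was 0.0523 and did not pass, where 1.62% of pairs were called above and 32.6% below expected. A mean of log2 ratios leans below 0 where few clonotypes are expected per mouse, so the 32.6% was not read as a rate of true shortfall. With sequences 1 base away from one of at least 10 times their count merged into it, an alternative chosen after seeing the data, 26 were observed against 10.1 expected and the log2 ratio was 1.00 ± 0.56, above 0 in 12 of 12 mice, with an adjusted p of 0.00624 in the same exact sign-flip permutation test. TRAV11 with TRAJ18, the invariant pair of natural killer T cells, was observed 116 times against 7.99 expected, a ratio of 14.5, and had the highest ratio of the pairs tested.

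TRAJ33 was 1 of 33 J segments joined to TRAV1 and ranked place 7 of 39 tested J segments by the ratio of observed to expected. The J segments with most TRAV1 clonotypes were TRAJ32 (102), TRAJ31 (61) and TRAJ18 (55), and only TRAJ32 was called above expected, with a ratio of 4.36 and an adjusted p of 0.0340 (exact sign-flip permutation test). TRAJ33 was joined to 62 V segments, most often TRAV12-1 (211 clonotypes), TRAV7-4 (82) and TRAV9-1 (63), with TRAV1 in place 12. In the RefSeq annotation of GRCm38.p6, TRAV1 is the first of 130 TRAV genes from the 5′ end, farthest from the J segments, and TRAJ33 has place 29 of 60 TRAJ genes. Over the 39 J segments, the ratio of TRAV1 was higher farther from the V side (Spearman rho 0.65 across J segments, a description, since they share libraries). In the tested J segments up to place 15, TRAV1 had 28 clonotypes against 203 expected, and 7 of these 9 segments had 0. This range was chosen after the values were seen.

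**Figure D5:**
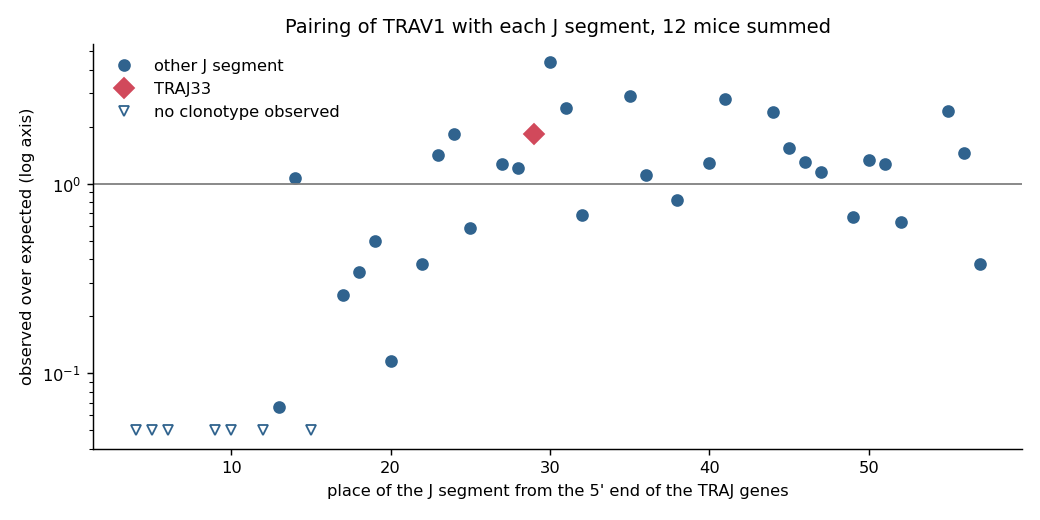
Place of each J segment from the 5′ end of the TRAJ genes against the ratio of observed to expected TRAV1 clonotypes (log axis), summed over 12 mice, with TRAJ33 as a diamond and a line at 1. Open triangles at the bottom are the 7 segments with no TRAV1 clonotype, which lie between places 4 and 15, and TRAJ33 sits at a ratio of 1.84.

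Other pairs known from MAIT and related cells were looked up. TRAV1 with TRAJ12, a minor pair of human MAIT cells, had 34 clonotypes in 7 mice and 9 tumors and at most 0.582% of the counts of a tumor. Summed over mice, 34 were observed against 25.4 expected, a ratio of 1.34, whereas the mean log2 ratio over the mice pointed the other way and did not pass, at −0.62 ± 1.61 (SD, n = 12 mice) and an exact sign-flip p = 0.206. TRAV1 with TRAJ20 was not analysed here. TRAV11 with TRAJ18 ranged from 0 to 1.83% of the counts (median 0.292%) and exceeded the MAIT-type share in 23 of 24 tumors. Tumor 1 of mouse 19 had the highest value of both pairs and tumor 2 of that mouse had 0 of both.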

How the data were processed

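The deposited tables hold, per tumor and chain, 1 count per receptor sequence. The authors made RNA libraries of whole tumors with molecular identifiers and called clonotypes with the Cogent NGS Immune Profiler 2.0, and deposited the counts without normalization. That software includes an identifier-based step, and the methods call the retained counts reads. Whether each count is a read or a molecule merged by its identifier is not stated, and the genome build is not given in the sources used here.

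Records with the stop mark, which includes out-of-frame sequences, and records under 2 counts were left out. Allele suffixes were ignored. Shares are percents of the retained TCRα counts of a tumor, averaged per mouse. Groups came from the sample labels. Group comparisons used exact permutation tests over mice, with the sum of squares between groups for 3 groups, and paired comparisons used exact sign-flip tests. Segments found in at least 6 mice were tested. Pairing compared clonotype numbers, with 0.5 added, in pairs with at least 5 expected clonotypes. The named clonotypes are the 5 of each class found in most mice and the largest of each group, and the named segments are the most alike and most joined ones. The other MAIT-type chains printed and the chains of mouse 12 were chosen after their values were seen.

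The members, lists and tests were chosen with earlier results of these data known. Alternatives were thinning (20 draws, seed 20), other minimum counts, stop-marked sequences kept, clonotype shares, log2 values, summed tumors, the largest clonotype left out, nucleotide clonotypes, each mouse left out, and edgeR 4.0.16 (R 4.3.3) on counts per mouse with raw library sizes. The frame-shift column was empty in all tables and could not be used apart. The TCRβ tables held 4 records with a member segment, each at 1 count. The tests were tried on simulated data. Python 3.11.15, numpy 2.4.6, pandas 2.3.3, scipy 1.17.1 and matplotlib 3.10.9 were used.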

Additional observations from a re-analysis of the deposited data

Results flagged for a closer look

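In 12 groups of 6 tumors (3 classes in 4 groups), Dixon's test marked 4 tumors as far from the others of their group, where chance marks about 1 in 20 groups of independent, normally spread values. These shares are bounded at 0 and the 6 tumors of a group come in pairs from 3 mice, so the number of marks was not read against that rate. The MAIT-type share was 0.0800% in tumor 2 of time-matched mouse 6, 0.126% in tumor 1 of low-dose mouse 20 and 0.154% in tumor 2 of high-dose mouse 7. The last came from the smallest library, with 41 counts of 26623 (95% Clopper-Pearson interval 0.111% to 0.209%). TRAV1 with another J held 3.80% in tumor 1 of high-dose mouse 10, of which the 15-residue TRAJ32 chain held 1.88%.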

How the results depend on the processing

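Over all results and alternatives, 311 values kept their direction and their side of the threshold, 8 newly passed it, 3 no longer passed it and 4 turned direction. The threshold of 0.05 was set on unadjusted p in the permutation tests of shares, length, sharing and tumor differences, and on adjusted p for the pairing and edgeR. The share of TRAJ33 with another V, time-matched against all time-separated mice, passed at an unadjusted exact permutation p = 0.0409 without the largest clonotype of each mouse (a difference of 1.17 percentage points). With 1 mouse left out it lay between 0.782 and 7.14 percentage points. In edgeR's quasi-likelihood test its adjusted p was 0.451 (0.0278 before adjustment). The pairing of TRAV1 with TRAJ33 passed after adjustment in the exact sign-flip permutation test with a minimum of 10 counts (log2 ratio 1.05, p = 0.00557), after thinning (0.81, p = 0.0135) and after merging of near-identical sequences (1.00, p = 0.00624), and ranged from 0.56 to 0.78 with 1 mouse left out, where it passed without mouse 10 or mouse 12. It did not pass by nucleotide sequence (0.70, adjusted p = 0.0563) or with a minimum of 1 count (0.71, adjusted p = 0.0965, 8 mice above 0). With stop-marked sequences kept, TRAV1 with another J moved from −0.355 to −1.02 percentage points against all time-separated mice (exact permutation p = 0.1), and its sum of squares between the 3 time-separated groups from 1.15 to 0.0925. With those sequences left out, the difference was −0.0163 without mouse 12, −0.0783 without mouse 14 and −0.969 without mouse 6. As an absolute difference in percent, the between-tumor difference of TRAJ33 with another V turned to 0.903 (time-matched minus untreated time-separated) and 0.388 (minus all time-separated). On the same scale that of TRAV1 with another J kept its direction, at −0.788 against the untreated time-separated mice (exact permutation p = 0.1, the smallest possible). The MAIT-type between-tumor log2 difference against untreated time-separated mice was −1.40, and −2.08 after thinning (exact permutation p = 0.2). Leaving out mouse 4 gave −2.29, mouse 14 −0.22 and mouse 19 −0.03, and the other single mice gave values between the first and the last. The between-tumor log2 difference with 1 mouse left out ranged from −1.73 to 0.14 for MAIT-type chains against all time-separated mice, and from −0.46 to 0.12 for TRAJ33 against the untreated ones. The cause of these shifts was not tested. No paired analysis was possible because the groups share no mouse number, so that pairing was used only within mice. The length differences passed under all alternatives run. The sharing differences fell to 8.56 (against TRAV1 with another J), 10.9 and 8.56 percentage points without the most shared MAIT-type clonotype, an alternative chosen after seeing the data, and passed under the others. The MAIT-type values rest on 1390 counts and 42 records.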
